A study of Homo sapiens with 18 samples.

Results

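The genes described here are 10 transcription factors of the myeloid lineage: CEBPA, CEBPB, CEBPD, CEBPE, SPI1, GFI1, RUNX1, MYB, GATA2 and KLF4. They were chosen by name. Each was followed by the probe set annotated to that gene alone, and each had exactly 1 such probe set. They are 10 of the 18417 genes that had such a probe set, on an array of 33297 probe sets. RNA came from NB4, an established human line of acute promyelocytic leukemia, and was measured on 18 Affymetrix gene arrays. The 6 groups, of 3 arrays each, were TG2 knockout and wild-type NB4 cells that had received no ATRA, TG2 knockout and wild-type cells after 48 h of 1 µM ATRA (all-trans retinoic acid), and TG2 knockout and wild-type cells after 72 h of it. The series text calls the 3 arrays of a group biological replicates.

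TG2, the product of TGM2, is the transglutaminase that crosslinks proteins in many tissues. The titles name the modified cells a knockout and their sample codes contain KD; the labels do not give the method, the number of clones or a control vector. TGM2 read 6.30, 6.51 and 6.36 in untreated knockout cells and 6.40, 6.27 and 6.61 in untreated wild-type cells on the log2 scale. At 72 h of ATRA it read 11.61, 10.87 and 11.25 in knockout cells and 12.54, 12.19 and 12.39 in wild-type cells. The transcript was thus present in both genotypes under ATRA, lower in the knockout by 1.31 at 48 h and 1.13 at 72 h (limma log2 differences −1.31 and −1.13, adjusted p = 0.0345 and 0.0267). In untreated cells the difference was −0.04. MPO, the myeloperoxidase gene that marks promyelocytes, averaged 12.68 in untreated knockout and 12.69 in untreated wild-type cells, so this marker of the labelled cell type was present. On the first principal component of all probe sets (57.1% of the variance) the untreated arrays lay between −89.9 and −84.7. Most ATRA arrays lay between 46.3 and 56.6. Nearer the untreated arrays lay replicates 1 (31.2) and 3 (31.1) of the knockout at 48 h, replicate 2 of the knockout at 72 h (30) and replicate 1 of the wild-type cells at 48 h (17.5), and each test of the 10 factors was also run without each of them.

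Granulocytes arise from progenitors through an ordered use of transcription factors. RUNX1, MYB and GATA2 act in stem and progenitor cells. SPI1, also called PU.1, and CEBPA open the myeloid programme, GFI1 and CEBPE carry cells into the neutrophil branch, and KLF4 acts in the monocyte branch. In acute promyelocytic leukemia the fusion of PML with the retinoic acid receptor alpha holds cells at the promyelocyte stage, and ATRA releases that block.

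Start-site sequences were read from RefSeq (GRCh38.p14) for 8 of the 10 genes, as 12 windows of 300 bases. Each window ran from 250 bases before to 50 bases after an annotated start. No window was taken for CEBPD or SPI1, so their start sites were not searched. The 4 windows below are shown because CEBPE and CEBPB had the largest rises of the 10 genes and MYB the largest fall in each genotype at 72 h, and because GFI1 holds a hexamer of retinoic acid receptor sites. Capitals mark a match to a searched motif on either strand.
CEBPE (chr14:23119206-23119505, minus strand): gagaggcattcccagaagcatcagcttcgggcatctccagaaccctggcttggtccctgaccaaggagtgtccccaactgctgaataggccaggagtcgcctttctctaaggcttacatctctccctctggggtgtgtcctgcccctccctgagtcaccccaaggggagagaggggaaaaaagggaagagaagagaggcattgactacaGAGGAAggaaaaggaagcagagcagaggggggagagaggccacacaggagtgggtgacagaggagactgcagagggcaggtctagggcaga
CEBPB (chr20:50190580-50190879, plus strand): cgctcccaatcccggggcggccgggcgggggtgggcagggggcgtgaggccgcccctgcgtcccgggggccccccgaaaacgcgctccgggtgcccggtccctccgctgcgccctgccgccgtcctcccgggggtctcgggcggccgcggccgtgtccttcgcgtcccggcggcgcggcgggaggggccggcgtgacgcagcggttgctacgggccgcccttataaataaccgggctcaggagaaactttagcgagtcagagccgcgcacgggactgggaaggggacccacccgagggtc
MYB (chr6:135181058-135181357, plus strand): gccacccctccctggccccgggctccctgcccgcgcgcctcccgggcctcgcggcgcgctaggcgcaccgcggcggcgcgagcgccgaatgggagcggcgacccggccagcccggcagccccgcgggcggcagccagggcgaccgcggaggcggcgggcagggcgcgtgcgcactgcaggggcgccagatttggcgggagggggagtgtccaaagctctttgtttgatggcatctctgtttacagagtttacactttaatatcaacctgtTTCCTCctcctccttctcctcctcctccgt
GFI1 (chr1:92486876-92487175, minus strand): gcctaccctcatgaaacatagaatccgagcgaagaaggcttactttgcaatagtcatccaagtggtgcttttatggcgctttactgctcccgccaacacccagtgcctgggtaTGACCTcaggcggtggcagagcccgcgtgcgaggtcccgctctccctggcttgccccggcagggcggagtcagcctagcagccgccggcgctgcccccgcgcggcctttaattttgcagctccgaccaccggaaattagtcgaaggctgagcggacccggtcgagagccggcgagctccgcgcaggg
The CEBPE window holds GAGGAA, the core that SPI1 binds, from base −41 relative to the start. The MYB window holds it on the opposite strand from base 20 after the start, and the CEBPB window holds none of the searched motifs. The GFI1 window holds AGGTCA, 1 of the 2 searched hexamers of retinoic acid receptors, on the opposite strand. A full receptor site is a pair of such hexamers, and pairs were not searched, so a match is only part of a site. Over the 12 windows GAGGAA occurred in 6, 1 each in CEBPE, GFI1, RUNX1, MYB, GATA2 and KLF4. It occurs in 27.9% of all 35116 windows read from RefSeq. AGGTCA occurred in 2 windows (GFI1 and GATA2, 13.8% of all windows) and GGGTCA, the other hexamer, in 1 (GATA2, 14.1%). TTGCNNAA, the C/EBP motif, occurred in 1 (GFI1, 10.5%) and TGTGGT, the RUNX motif, in 1 (GFI1, 13.1%). AGATAA, bound by GATA factors, and AACNGAC, bound by MYB, occurred in 0 of the 12 windows (10.3% and 7.13% of all windows). No searched motif overlapped another in these windows. A match describes letters in a window and is no evidence of binding, and the windows are not independent, since CEBPB, GFI1 and GATA2 have more than 1.

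Under ATRA the 10 factors fell into 3 classes that were the same in both genotypes and at both times. CEBPB, CEBPE and SPI1 rose. CEBPD, GFI1, RUNX1, MYB, GATA2 and KLF4 fell. CEBPA did not pass the test. A change was called at an adjusted p under 0.05 by limma, with Benjamini-Hochberg adjustment over all 33297 probe sets. Each of the 4 comparisons of ATRA with untreated cells called 9 of the 10 factors, 3 higher and 6 lower. At 48 h limma called 41.4% of all probe sets in knockout cells (21.5% higher and 19.9% lower) and 38.9% in wild-type cells (19.3% higher and 19.6% lower). At 72 h it called 42% in knockout cells (22.8% higher and 19.2% lower) and 44% in wild-type cells (23.1% higher and 21% lower). In each comparison the ATRA arrays of 9 of the 10 factors did not overlap the untreated arrays, as was so for 57.5% of all probe sets in knockout and 58.1% in wild-type cells at 48 h, and for 57.8% in knockout and 62.3% in wild-type cells at 72 h. Called changes of at least 2-fold numbered 2 of 10 in knockout and 3 of 10 in wild-type cells at each time, against 12.9% of all probe sets in knockout and 13.1% in wild-type cells at 48 h, and 13.8% in knockout and 15.8% in wild-type cells at 72 h. The median change of the 10 factors was −0.45 in knockout and −0.57 in wild-type cells at 48 h, against medians over all probe sets of 0.14 in knockout and 0.10 in wild-type cells. At 72 h it was −0.48 in knockout and −0.55 in wild-type cells, against 0.13 in knockout and 0.12 in wild-type cells over all probe sets. All of these are log2 values. Apart from GATA2 and KLF4, each factor had a mean signal above that of 85.8% or more of all probe sets. The share called among equally bright probe sets was not counted. In a bulk sample fewer cells of a type and less RNA per cell cannot be told apart, and the p-values measure the spread between these samples, since the labels do not say how the replicates were made.

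**Figure D1:**
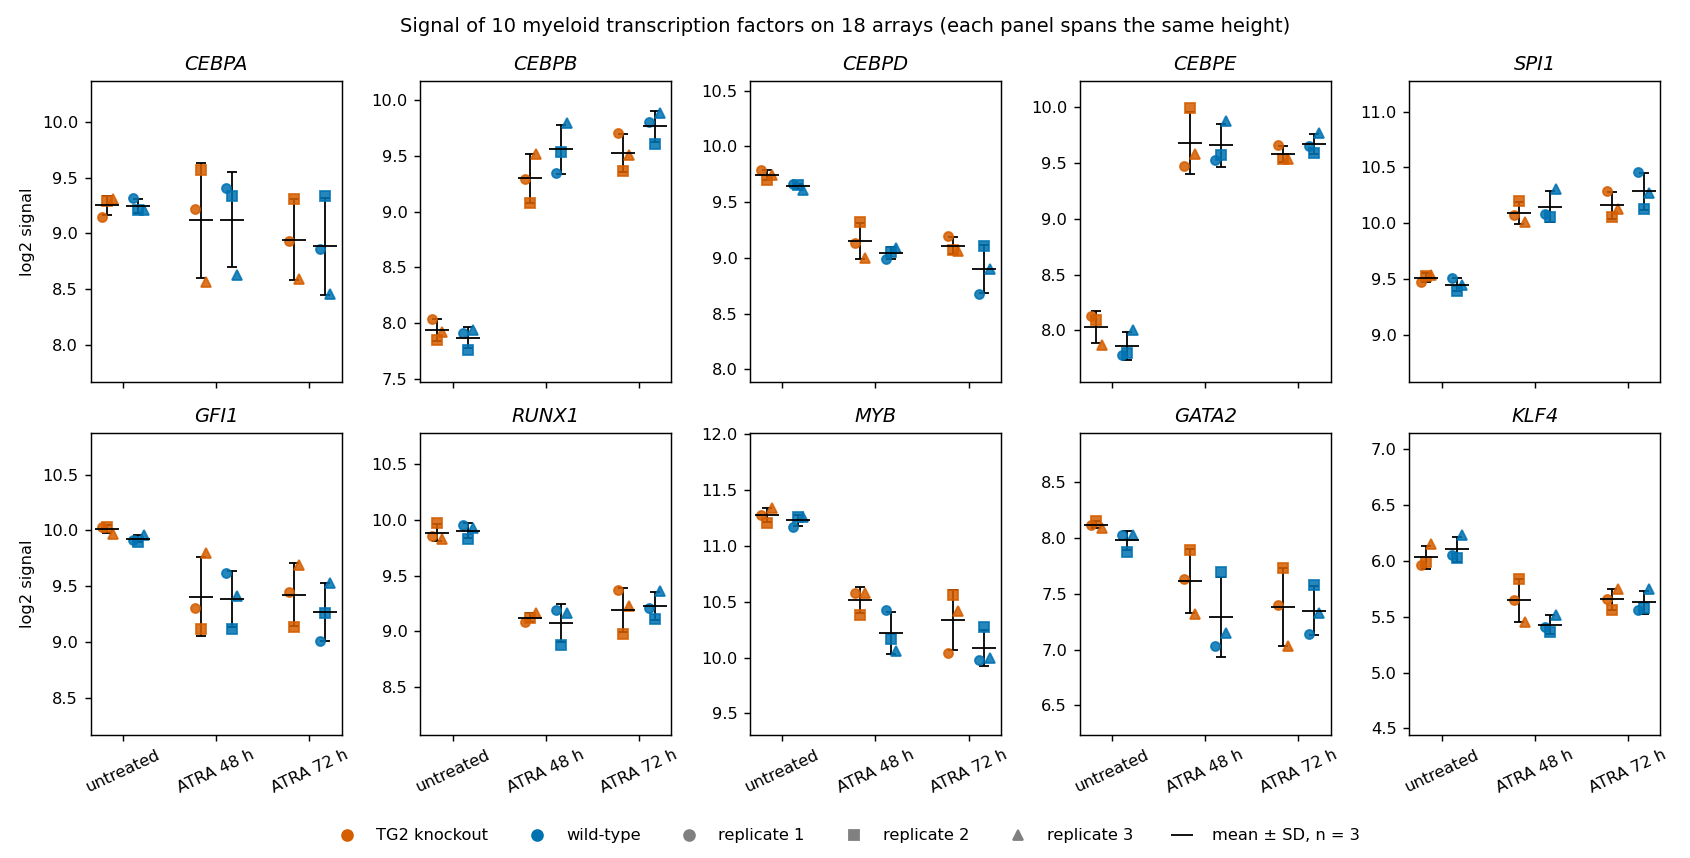
Log2 signal (vertical axis) of each factor on all 18 arrays, by treatment (horizontal axis), with knockout cells in orange left of wild-type cells in blue, marker shapes for the replicate number and black bars for mean ± SD (n = 3). Each panel spans the same height, so steps can be compared between panels; CEBPB and CEBPE step up by more than 1 unit, MYB steps down, and the CEBPA arrays spread over 8.46 to 9.57 with replicate 3 low in each ATRA group.

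Of the C/EBP family, basic leucine zipper factors that drive myeloid genes, CEBPE had the steepest rise at 48 h. CEBPE serves the late steps of neutrophil maturation and the secondary granules. It read 8.13, 8.09 and 7.87 in untreated knockout cells and 7.78, 7.80 and 8.0 in untreated wild-type cells. After 48 h it read 9.47, 9.99 and 9.58 in knockout cells and 9.53, 9.57 and 9.88 in wild-type cells. At 72 h it read 9.66, 9.54 and 9.54 in knockout cells and 9.65, 9.59 and 9.77 in wild-type cells. Every ATRA array lay more than 1 unit above every untreated array, and the 4 ATRA groups overlapped one another. The log2 rise was 1.65 ± 0.14 (SE) in knockout and 1.80 ± 0.14 in wild-type cells at 48 h (adjusted p = 2.13e-07 and 7.34e-08). At 72 h it was 1.55 ± 0.14 in knockout and 1.81 ± 0.14 in wild-type cells (adjusted p = 3.95e-07 and 6.14e-08), which is 2.93-fold and 3.51-fold.

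CEBPB, a C/EBP factor of stress-induced granulopoiesis and of macrophages, rose to a like extent. It read 8.04, 7.85 and 7.92 in untreated knockout and 7.91, 7.76 and 7.94 in untreated wild-type cells. Its 48 h values were 9.29, 9.08 and 9.52 in knockout and 9.35, 9.53 and 9.79 in wild-type cells, and at 72 h 9.70, 9.36 and 9.51 in knockout and 9.80, 9.61 and 9.88 in wild-type cells. All ATRA arrays lay above all untreated arrays, and knockout and wild-type arrays overlapped at each time. The rise was 2.57-fold in knockout and 3.22-fold in wild-type cells at 48 h (log2 1.36 ± 0.14 and 1.69 ± 0.14, SE; adjusted p = 1.63e-06 and 1.72e-07). At 72 h the log2 rise was 1.59 ± 0.14 in knockout and 1.89 ± 0.14 in wild-type cells (adjusted p = 3.56e-07 and 4.28e-08).

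CEBPD, which is known as a gene of the acute-phase response and of later granulocytes, fell. It read 9.79, 9.70 and 9.74 in untreated knockout and 9.66, 9.65 and 9.61 in untreated wild-type cells. After ATRA it read between 9.0 and 9.32 in knockout and between 8.99 and 9.09 in wild-type cells at 48 h, and between 9.06 and 9.20 in knockout and between 8.68 and 9.11 in wild-type cells at 72 h. No ATRA array reached the level of an untreated one. The log2 change was −0.59 ± 0.11 (SE) in knockout and −0.60 ± 0.11 in wild-type cells at 48 h, and −0.63 ± 0.11 in knockout and −0.74 ± 0.11 in wild-type cells at 72 h (adjusted p between 5.27e-05 and 0.000458). Under quantile normalization of the arrays the 48 h calls were lost (adjusted p = 0.0701 in knockout and 0.0681 in wild-type cells).

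CEBPA, the C/EBP factor that commits progenitors to the granulocyte and monocyte branches, was the 1 factor of the 10 that no ATRA comparison called. It read 9.15, 9.29 and 9.31 in untreated knockout cells and 9.32, 9.21 and 9.21 in untreated wild-type cells. The 48 h arrays read 9.22, 9.57 and 8.56 in knockout and 9.41, 9.33 and 8.63 in wild-type cells, and at 72 h 8.93, 9.31 and 8.59 in knockout and 8.86, 9.33 and 8.46 in wild-type cells. The third replicate of every ATRA group lay below all untreated arrays, while the second replicate was as high as them, so the groups overlapped. The log2 change at 72 h was −0.31 ± 0.26 (SE, 95% interval −0.87 to 0.25) in knockout and −0.36 ± 0.26 (−0.92 to 0.20) in wild-type cells (adjusted p = 0.364 and 0.276), intervals that hold both no change and a clear fall. The SD between arrays of CEBPA was 0.36 to 0.51 in the 4 ATRA groups, against a median over all probe sets of 0.215 to 0.243, and 0.09 in untreated knockout and 0.06 in untreated wild-type cells.

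SPI1, an ETS factor needed by granulocytes and monocytes alike, rose by a smaller step. It read 9.47, 9.53 and 9.54 in untreated knockout and 9.51, 9.39 and 9.45 in untreated wild-type cells. With 48 h of ATRA it read 10.07, 10.20 and 10.01 in knockout and 10.08, 10.06 and 10.31 in wild-type cells, and at 72 h 10.29, 10.06 and 10.13 in knockout and 10.46, 10.13 and 10.27 in wild-type cells. The ATRA arrays stood clear of the untreated ones without overlap in both genotypes. The rise was 1.49-fold in knockout and 1.62-fold in wild-type cells at 48 h (adjusted p = 0.000335 and 5.91e-05). The rise at 72 h was 1.57-fold in knockout and 1.79-fold in wild-type cells (log2 0.65 ± 0.10 and 0.84 ± 0.10, SE; adjusted p = 0.000132 and 9.00e-06).

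MYB, which keeps progenitors dividing and immature, had the largest fall of the 10 at 72 h. It read 11.28, 11.21 and 11.34 in untreated knockout and 11.17, 11.26 and 11.26 in untreated wild-type cells. After 48 h it read 10.58, 10.38 and 10.58 in knockout and 10.43, 10.17 and 10.06 in wild-type cells, and at 72 h 10.04, 10.56 and 10.42 in knockout and 9.98, 10.27 and 10.00 in wild-type cells. All ATRA arrays lay below all untreated ones, and at each time the highest wild-type array overlapped the knockout range. The signal fell to 58.9% of untreated in knockout and 49.7% in wild-type cells at 48 h (log2 −0.76 ± 0.13 and −1.01 ± 0.13, SE; adjusted p = 0.000213 and 1.50e-05). After 72 h it stood at 52.2% in knockout and 45.2% in wild-type cells (log2 −0.94 ± 0.13 and −1.15 ± 0.13; adjusted p = 3.42e-05 and 3.57e-06).

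RUNX1, the core-binding factor subunit that founds and maintains blood progenitors, fell by 48 h, and its mean was no lower at 72 h. It read 9.85, 9.97 and 9.83 in untreated knockout and 9.95, 9.83 and 9.93 in untreated wild-type cells. Its 48 h values were 9.08, 9.12 and 9.16 in knockout and 9.19, 8.88 and 9.16 in wild-type cells, and at 72 h 9.37, 8.98 and 9.23 in knockout and 9.21, 9.11 and 9.36 in wild-type cells. The untreated arrays stood above every ATRA array. The log2 change was −0.76 ± 0.11 (SE) in knockout and −0.83 ± 0.11 in wild-type cells at 48 h, and −0.69 ± 0.11 in knockout and −0.68 ± 0.11 in wild-type cells at 72 h (adjusted p between 2.97e-05 and 0.000175).

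GATA2, a zinc finger factor of stem cells, mast cells and basophils, fell with a wide spread. It read 8.12, 8.15 and 8.09 in untreated knockout and 8.03, 7.88 and 8.03 in untreated wild-type cells. The 48 h arrays read 7.63, 7.89 and 7.32 in knockout and 7.03, 7.70 and 7.15 in wild-type cells, and at 72 h 7.40, 7.73 and 7.03 in knockout and 7.14, 7.58 and 7.33 in wild-type cells. In each genotype the ATRA arrays lay below the untreated ones, by as little as 0.18 for wild-type replicate 2 at 48 h. The log2 change was −0.51 ± 0.20 (SE) in knockout and −0.69 ± 0.20 in wild-type cells at 48 h (adjusted p = 0.0493 and 0.0116), and −0.73 ± 0.20 in knockout and −0.63 ± 0.20 in wild-type cells at 72 h (adjusted p = 0.00733 and 0.0166). The knockout call at 48 h was lost in 11 of the 18 fits that left out 1 array (adjusted p up to 0.18), and all 4 calls were lost under quantile normalization (adjusted p between 0.0645 and 0.344).

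GFI1, a repressor that silences monocyte and progenitor genes in neutrophil precursors, fell as well. It read 10.03, 10.03 and 9.97 in untreated knockout and 9.91, 9.90 and 9.96 in untreated wild-type cells. With 48 h of ATRA it read 9.30, 9.12 and 9.80 in knockout and 9.62, 9.12 and 9.41 in wild-type cells, and at 72 h 9.45, 9.13 and 9.69 in knockout and 9.01, 9.26 and 9.53 in wild-type cells. Untreated arrays were tightly grouped, and the ATRA arrays spread over 0.79 units below them. The log2 change was −0.60 ± 0.18 (SE) in knockout and −0.54 ± 0.18 in wild-type cells at 48 h, and −0.59 ± 0.18 in knockout and −0.66 ± 0.18 in wild-type cells at 72 h (adjusted p between 0.00792 and 0.0264). Quantile normalization ended all 4 calls (adjusted p between 0.11 and 0.264), and the wild-type call at 48 h was lost in 5 of 18 fits that left out 1 array.

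KLF4, a Krüppel-like factor that favours monocytes, had a low signal: 42.2% of all probe sets had a lower mean, and no measure of background was used here. It read 5.96, 5.99 and 6.15 in untreated knockout and 6.05, 6.03 and 6.23 in untreated wild-type cells. After 48 h it read 5.65, 5.84 and 5.45 in knockout and 5.41, 5.36 and 5.52 in wild-type cells, and at 72 h 5.66, 5.56 and 5.75 in knockout and 5.56, 5.58 and 5.75 in wild-type cells. The ATRA arrays were the lower ones in both genotypes. The log2 change was −0.39 ± 0.12 (SE) in knockout and −0.67 ± 0.12 in wild-type cells at 48 h (adjusted p = 0.0197 and 0.000443), and −0.38 ± 0.12 in knockout and −0.47 ± 0.12 in wild-type cells at 72 h (adjusted p = 0.0222 and 0.00563). The 48 h call in knockout cells was lost without untreated knockout replicate 3 or knockout 48 h replicate 3 (adjusted p up to 0.0869).

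The falls have to be read against the scale of the table. Over all probe sets the median log2 change under ATRA was 0.10 to 0.14, and over the brightest 25% of probe sets it was −0.27 to −0.23 in the 4 comparisons. After quantile normalization these medians were 0.05 to 0.07 and −0.03 to −0.01. Counts of called factors were then 6 of 10 at 48 h and 7 of 10 at 72 h in each genotype, where 32.8% of all probe sets were called in knockout and 32.2% in wild-type cells at 48 h, and 32.2% in knockout and 35.6% in wild-type cells at 72 h. The losses were GFI1 and GATA2 at both times and CEBPD at 48 h, and no called factor turned its direction. Several falls were smaller by over 1.5 times under that setting. CEBPD changed by −0.31 in each genotype at 48 h, and by −0.37 in knockout and −0.45 in wild-type cells at 72 h. GFI1 changed by −0.34 in knockout and −0.27 in wild-type cells at 48 h, and by −0.34 in knockout and −0.37 in wild-type cells at 72 h. These compare with the larger values given for each factor above. RUNX1, still called, changed by −0.49 in knockout cells at 48 h, and by −0.43 in knockout and −0.39 in wild-type cells at 72 h, and GATA2 by −0.29 in knockout cells at 48 h. MYB changed by −0.76 in knockout and −0.94 in wild-type cells at 72 h. The rises were larger, at 1.80 in knockout and 2.11 in wild-type cells for CEBPB at 72 h.

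**Figure D2:**
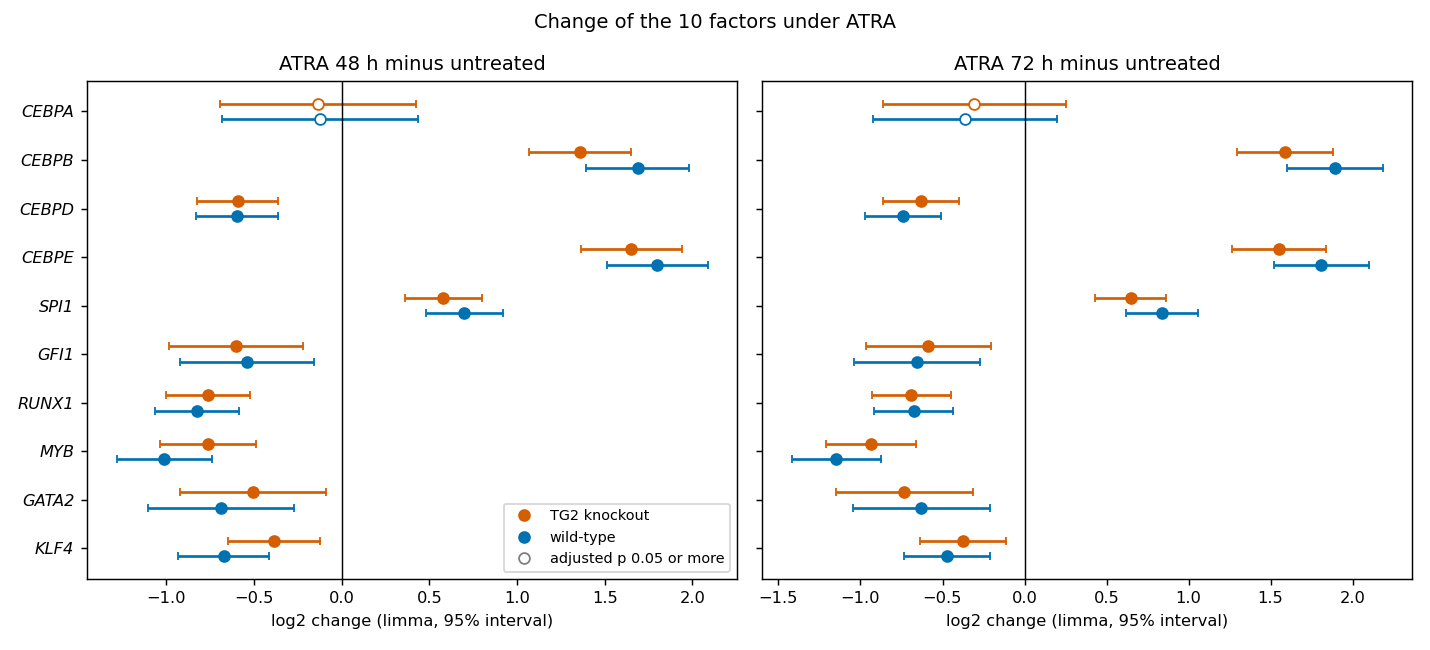
Log2 change of each factor (horizontal axis, points with 95% intervals from limma) at 48 h of ATRA (left) and 72 h (right) against untreated cells of the same genotype, knockout in orange above wild-type in blue, with open points where the adjusted p is 0.05 or more. CEBPB, CEBPE and SPI1 lie right of 0, 6 factors lie left of it, and only the CEBPA intervals cross 0.

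The changes were in place by 48 h. Between 72 and 48 h limma called 0 of the 10 factors in knockout and 0 in wild-type cells, with 0% of all probe sets called in either; at an unadjusted p under 0.05 it also found 0 of 10 in both, with 8.2% of all probe sets in knockout and 5.86% in wild-type cells. The log2 differences of the factors lay between −0.23 and 0.23 in knockout cells and between −0.24 and 0.21 in wild-type cells. CEBPB was higher at 72 than at 48 h by 0.23 ± 0.14 (SE) in knockout and 0.21 ± 0.14 in wild-type cells. KLF4 in wild-type cells was the 1 factor whose 72 h arrays (5.56 to 5.75) did not overlap the 48 h arrays (5.36 to 5.52), by 0.20 ± 0.12 (adjusted p = 0.907), where 7.13% of all probe sets did not overlap (7.9% in knockout cells, with 0 of the 10 factors).

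No factor was called between the genotypes. Limma called 0 of 10 in untreated cells, at 48 h and at 72 h, where it called 0.00601%, 0.021% and 0.0961% of all probe sets, and 0 of 10 for the difference of the ATRA response at 48 h and at 72 h (0.003% and 0% of all probe sets). The lowest adjusted p of the 10 factors was 1 in untreated cells, 0.803 at 48 h and 0.480 at 72 h. An unadjusted p under 0.05 was found for 1 of 10 factors at 48 h, which was MYB, and for 0 of 10 in untreated cells, at 72 h and for both differences of the response. Over all probe sets the share with such a p was 5.92% at 48 h, 1.15% in untreated cells, 11.2% at 72 h, and 2.88% and 4.66% for the differences of the response at 48 h and 72 h, so the count of factors was near the share on the whole array. For MYB at 48 h the test missed the adjusted threshold. Its log2 signal was higher in the knockout by 0.29 ± 0.13 (SE, 95% interval 0.02 to 0.57; limma adjusted p = 0.803). At 72 h MYB was higher in the knockout by 0.26 ± 0.13 (−0.02 to 0.53), and the knockout arrays (10.04 to 10.56) overlapped the wild-type ones (9.98 to 10.27). CEBPB differed the other way, by −0.26 ± 0.14 (−0.55 to 0.03) at 48 h and −0.24 ± 0.14 (−0.53 to 0.05) at 72 h. CEBPE differed by 0.02 (−0.27 to 0.31) at 48 h and −0.09 (−0.38 to 0.20) at 72 h, and SPI1 by −0.06 (−0.27 to 0.16) and −0.13 (−0.34 to 0.09). With 3 arrays a group the precision differed between the factors: over the 10 factors and 3 times the 95% intervals ran from 0.22 to 0.56 to either side of the value. Each factor has 1 SE for all times, pooled over all groups, so its intervals do not follow its spread at each time. Within the 3 pairs of equal replicate number at 72 h MYB was higher in the knockout by 0.06, 0.29 and 0.42, and CEBPB differed by −0.10, −0.25 and −0.37 (knockout minus wild-type). One sign in all 3 pairs was seen for 3 of the 10 factors, MYB, CEBPB and SPI1, and for 30.6% of all probe sets. With the replicate number as a block in limma the adjusted p at 72 h was 0.478 for MYB and 0.434 for CEBPB.

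In untreated cells the knockout arrays of CEBPD, GFI1 and GATA2 all lay above the wild-type ones. The log2 differences were 0.10 ± 0.11, 0.09 ± 0.18 and 0.14 ± 0.20 (SE; adjusted p = 1 for each). These were 3 of 10 factors, where 18.1% of all probe sets did not overlap. The SEs pool the spread of all 6 groups, which was wider under ATRA. For GFI1 the SD was 0.03 in each untreated group and 0.25 to 0.35 in the ATRA groups. With only the compared groups in limma, the lowest adjusted p of a factor in untreated cells was 0.296. At 48 and 72 h no factor was free of overlap between the genotypes (6.76% and 11.6% of all probe sets).

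**Figure D3:**
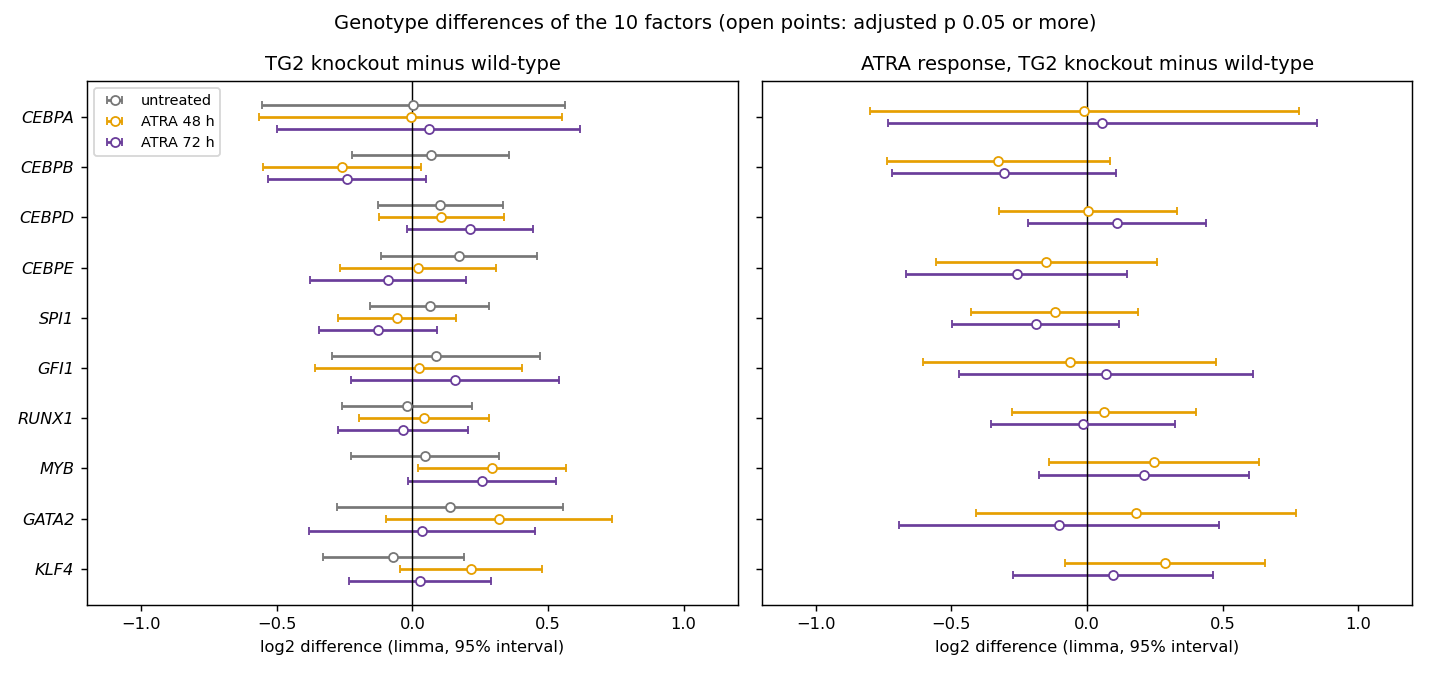
Left, log2 difference of each factor between TG2 knockout and wild-type cells (horizontal axis, points with 95% intervals) for untreated cells, 48 h and 72 h of ATRA; right, the difference between the genotypes in the ATRA change at 48 h and 72 h. All points are open (adjusted p 0.05 or more), and MYB at 48 h is the 1 point whose interval (0.02 to 0.57) leaves out 0.

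Taken as point estimates, most of the called factors changed less in the knockout. At 48 h the change was smaller in the knockout for 8 of 9, the exception being GFI1, and the median ratio of the knockout to the wild-type change was 0.829. The 8 include CEBPD, which changed almost equally, by −0.593 in knockout and −0.597 in wild-type cells. They also include CEBPE, whose 48 h mean was 9.68 in knockout and 9.66 in wild-type cells. Its untreated means differed more, at 8.03 in knockout and 7.86 in wild-type cells. Over the 10335 probe sets called the same way in both genotypes 48.6% were smaller in the knockout, with a median ratio of 1.01. The 72 h change was smaller for 7 of 9, the exceptions being RUNX1 and GATA2, with a median ratio of 0.852, against 57.8% of 11004 probe sets and 0.953. The gap was −0.33 for CEBPB (95% interval −0.74 to 0.09), 0.25 for MYB (−0.14 to 0.63) and 0.29 for KLF4 (−0.08 to 0.66) at 48 h. At 72 h it was −0.31 for CEBPB (−0.72 to 0.11), −0.26 for CEBPE (−0.67 to 0.15) and −0.19 for SPI1 (−0.50 to 0.12). None of these differences passed the test (adjusted p = 1.00 for each), and the count is a description with no test of its own. With each array left out in turn, or under another setting, the counts were 7 to 8 at 48 h and 6 to 8 at 72 h. For TGM2, the targeted gene, the difference of the ATRA response was −1.28 at 48 h and −1.09 at 72 h. Limma called neither (adjusted p = 0.98 at 72 h).

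Under ATRA some factors followed the replicate number. The labels do not say that equal numbers share a culture or a day. CEBPA was lowest in the third replicate of all 4 ATRA groups (8.46 to 8.63, against 8.86 to 9.57 in the other replicates), as were 2.32% of all probe sets. GATA2 was highest in the second replicate of all 4 (7.58 to 7.89, against 7.03 to 7.63), as were 2.07% of all probe sets. GFI1 ran opposite to both: its second replicate was lowest in 3 of 4 ATRA groups and its replicate 3 highest in 3 of 4. CEBPB was also lowest in the second replicate in 3 groups and highest in replicate 3 in 3. SPI1 and RUNX1 were lowest in the second replicate in 3 groups, and KLF4 was highest in replicate 3 in 3. The share of all probe sets with such a pattern in 3 of 4 groups was not counted, so these counts have no baseline.

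**Figure D4:**
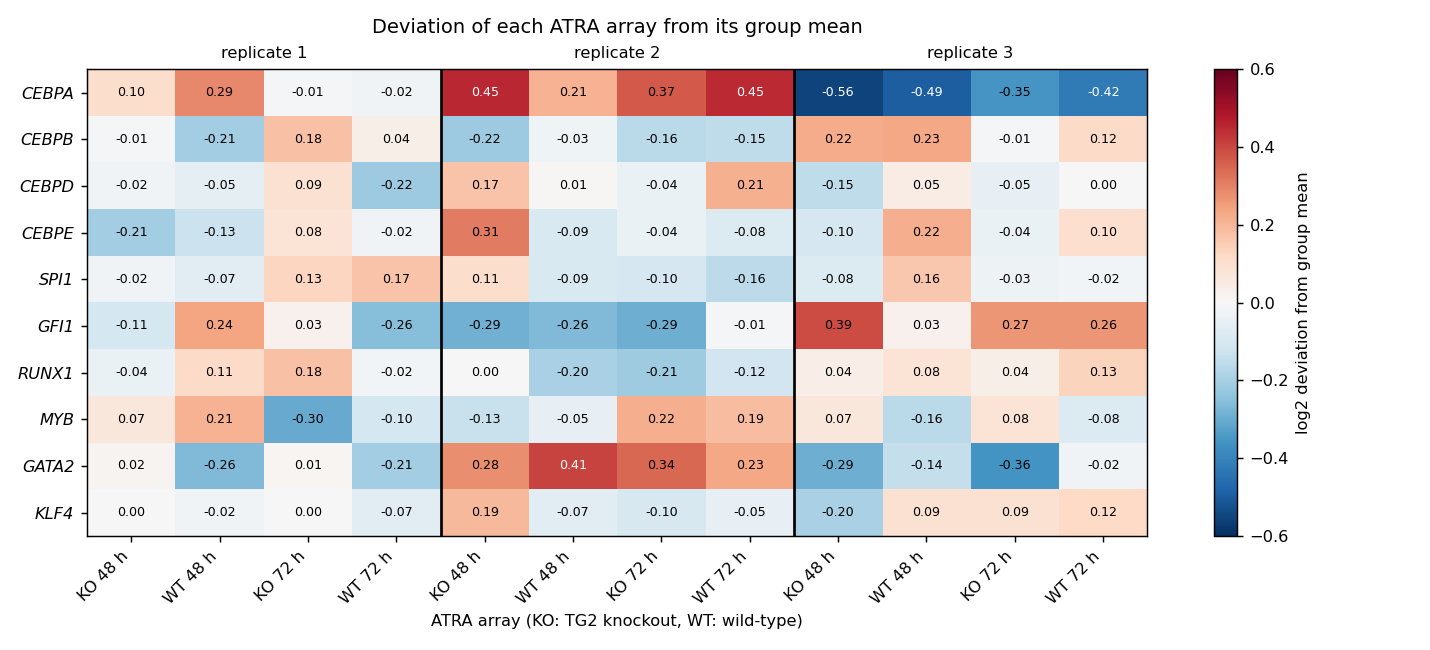
Deviation of each ATRA array from the mean of its own group (colour and printed value, log2 units), for the 10 factors (rows) on the 12 ATRA arrays (columns) ordered by replicate number, with KO for TG2 knockout left of WT for wild-type. The CEBPA row is negative in all 4 columns of replicate 3 and the GATA2 row positive in all 4 of replicate 2.

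Profiles most like those of the factors with a called change of at least 2-fold were sought among 17373 genes, by the root mean square difference of the log2 values on the 18 arrays after each gene was centred. The nearest to CEBPB were CTSD, the lysosomal protease cathepsin D (0.136), and APBB1IP, an adaptor of integrin activation (0.136), against a median over genes of 0.783. CTSD rose by 1.56 in knockout and 2.01 in wild-type cells at 72 h. The nearest to CEBPE were RPPH1, the RNA of ribonuclease P (0.131), and CCDC88B (0.158), against a median of 0.804. RPPH1 rose by 1.68 in knockout and 2.04 in wild-type cells at 72 h. The nearest to MYB were MRPL19, a mitochondrial ribosomal protein (0.0869), and CCNA2, the S-phase and mitotic cyclin A (0.0943), against a median of 0.568. CCNA2 changed by −0.91 in knockout and −1.03 in wild-type cells at 72 h.

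Of 19 measured relatives and partners of the 10 factors, 2 were higher and 6 lower in knockout cells at 72 h, and 3 higher and 4 lower in wild-type cells. That is 8 of 19 called in knockout and 7 of 19 in wild-type cells, where 42% of all probe sets were called in knockout and 44% in wild-type cells. The counts of this and the following lists at 72 h are to be read against 22.8% of all probe sets higher and 19.2% lower in knockout cells, and 23.1% higher and 21% lower in wild-type cells. GFI1B, the close relative of GFI1 used in red cells and platelets, rose by 1.11 ± 0.09 (SE) in knockout and 1.10 ± 0.09 in wild-type cells, the opposite of GFI1. MYBL1, a relative of MYB, changed by −0.95 in knockout and −0.94 in wild-type cells, as MYB did. ID1, an inhibitor of helix-loop-helix factors, rose by 1.05 in knockout and 0.96 in wild-type cells. ID2 changed by 0.17 in knockout cells, not called, and rose by 0.81 in wild-type cells, and the difference of −0.64 between the responses was not called (adjusted p = 1.00).

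Of the other monocyte factors 0 of 5 measured were higher and 1 lower in each genotype at 72 h. That 1 was ZEB2, a zinc finger repressor, at −1.92 in knockout and −1.90 in wild-type cells; IRF8, EGR1, NR4A1 and BATF3 were not called. Of 12 measured progenitor factors 2 were higher and 2 lower in knockout cells, and 3 higher and 3 lower in wild-type cells, near those shares of the whole array. WT1, a zinc finger factor high in leukemic blasts, changed by −1.67 in knockout and −1.91 in wild-type cells and IKZF1, the Ikaros factor, by −0.54 in knockout and −0.71 in wild-type cells. MEIS1 rose by 0.77 in knockout and 0.75 in wild-type cells and MECOM by 0.75 in knockout and 0.97 in wild-type cells. The mean signals of both were low at 72 h, with 5.34 in knockout and 5.17 in wild-type cells for MEIS1 and 5.36 in knockout and 5.62 in wild-type cells for MECOM, below the array medians of 6.12 to 6.26. Without a background measure the size of such a change is uncertain, as it is for BCL6, MYBL1, MMP8, CRISP3 and CLC, which read under 6 in untreated cells of both genotypes. Of 8 factors of later granulocytes and of signalling 1 was higher and 3 lower in knockout cells, and 2 higher and 1 lower in wild-type cells. IRF1, an interferon-regulatory factor, rose by 2.34 in knockout and 2.60 in wild-type cells, while BCL6, a repressor, stood 0.32 higher in knockout cells, not called, and rose by 1.12 in wild-type cells (difference −0.80, adjusted p = 1.00).

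Known targets of the factors were mixed. For C/EBP-epsilon, 2 of 6 specific granule genes were higher and 0 lower in knockout cells at 72 h, and 4 higher and 0 lower in wild-type cells. CRISP3 rose by 2.29 in knockout and 2.04 in wild-type cells and MMP8, a collagenase, by 0.98 in knockout and 2.20 in wild-type cells (difference −1.22, adjusted p = 1.00). Both had a low signal in untreated cells. LTF changed by 0.09 in knockout cells, not called, and rose by 0.61 in wild-type cells. OLFM4 changed by 0.41 in knockout cells, not called, and rose by 1.16 in wild-type cells. LCN2 (0.27 in knockout and 0.21 in wild-type cells) and CAMP (0.40 and 0.42) were not called. Of 7 receptor and oxidase genes driven by SPI1 and C/EBP factors 4 were higher in knockout and 6 in wild-type cells, with 0 lower. CSF3R, the receptor for G-CSF, rose by 1.72 in knockout and 2.33 in wild-type cells and ITGAM, the CD11b integrin, by 1.36 in knockout and 2.32 in wild-type cells (difference −0.97, adjusted p = 0.98). Of 5 azurophil granule genes, which SPI1, C/EBP factors and MYB drive in promyelocytes, 1 was higher and 2 lower in knockout cells, and 3 higher and 2 lower in wild-type cells. CTSG, cathepsin G, changed by −2.93 in knockout and −2.48 in wild-type cells, and MPO by −0.46 in knockout and −0.47 in wild-type cells. AZU1, azurocidin, rose by 0.84 in knockout and 1.13 in wild-type cells. Of 6 genes known as MYB targets 1 was higher and 2 lower in each genotype. BCL2, an inhibitor of apoptosis, changed by −2.02 in knockout and −2.01 in wild-type cells, and MYC by −0.77 in knockout and −1.05 in wild-type cells. ADA, adenosine deaminase, rose by 1.28 in knockout and 1.98 in wild-type cells, while KIT, CD34 and CCNB1 were not called.

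**Figure D5:**
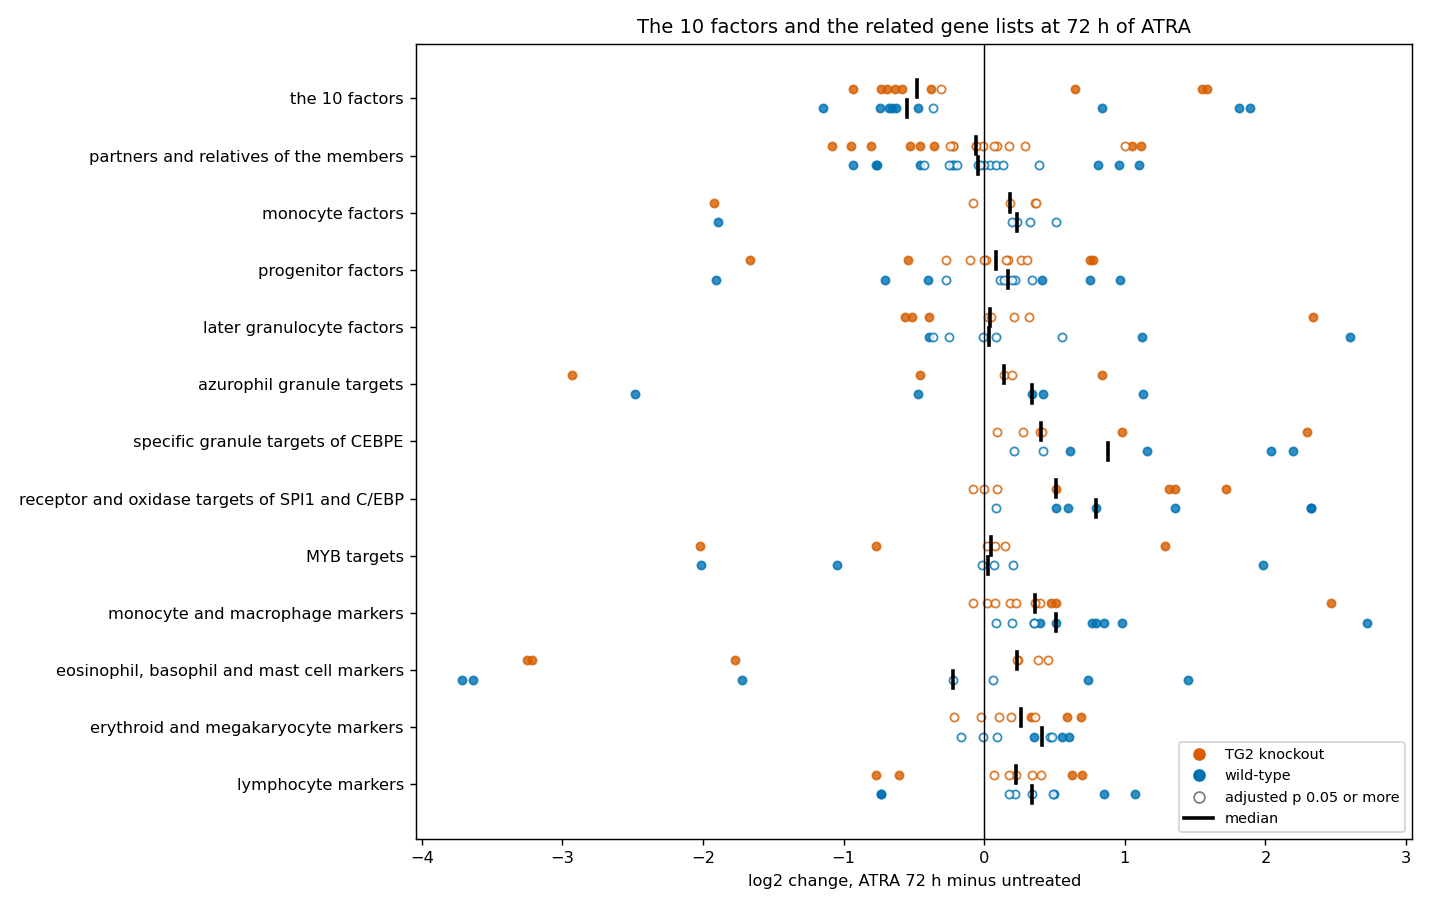
Log2 change at 72 h of ATRA (horizontal axis) of the 10 factors and of each further gene list (rows), knockout in orange above wild-type in blue, 1 point per gene, open where the adjusted p is 0.05 or more, with the median as a black bar. The 10 factors split into 3 genes right of 0 and 7 left of it, while no specific granule gene was called left of 0.

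Markers of other blood cells were followed in the same arrays, because several of the 10 factors are also used outside the neutrophil branch. Of 11 monocyte and macrophage markers, which share CD14 and CSF1R with the receptor list, 3 were higher and 0 lower in knockout cells at 72 h, and 7 higher and 0 lower in wild-type cells. Their mean log2 level was 5.96 to 6.21 in knockout and 6.18 to 6.65 in wild-type cells at 72 h, against 5.63 to 5.70 in untreated knockout and 5.68 to 5.81 in untreated wild-type cells. MERTK, a receptor for dying cells, rose by 2.47 in knockout and 2.72 in wild-type cells. Of 7 markers of eosinophils, basophils and mast cells, cells in which GATA2 is used, 0 were higher and 3 lower in knockout cells, and 2 higher and 3 lower in wild-type cells. PRG2, HDC and EPX fell, with log2 changes of −3.22, −3.25 and −1.77 in knockout cells and −3.72, −3.63 and −1.72 in wild-type cells. CLC, which encodes the Charcot-Leyden crystal protein, and FCER1A, a chain of the IgE receptor, went the other way: CLC changed by 0.45 in knockout cells, not called, and rose by 1.45 in wild-type cells, and FCER1A changed by 0.38 in knockout cells, not called, and rose by 0.74 in wild-type cells. Of 8 erythroid and megakaryocyte markers 3 were higher and 0 lower in each genotype, and of 9 lymphocyte markers 2 were higher and 2 lower in knockout cells, and 3 higher and 2 lower in wild-type cells, where 22.8% of all probe sets were higher and 19.2% lower in knockout cells. The part of such cells in the changes of the 10 factors was not tested.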

How the data were processed

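RNA of 18 samples was hybridized to Affymetrix gene arrays, per the labels. The authors deposited 1 value per probe set and array, used here as log2; that scale was read from the values (0.73 to 13.56, array medians 6.12 to 6.26), and how the authors corrected, normalized and summarized the probes is not given in the sources used here. No further normalization was applied to the reported values. Probe sets were named through the platform annotation, and 19460 of 33297 belong to exactly 1 gene. Groups and replicate numbers come from the labels.

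All 18 arrays entered 1 linear model with a mean for each group (limma 3.58.1, R 4.3.3; eBayes with a mean-variance trend), from which 11 comparisons were taken. Tests were 2-sided, and p was adjusted by Benjamini-Hochberg over all 33297 probe sets of a comparison. A call is an adjusted p under 0.05. The fit was tested on simulated data with independent arrays and 1 spread per probe set for all groups. Unequal spreads between groups were not simulated. The spread between 3 arrays a group limits the precision; the fit assumes 1 spread for all groups, while the median SD was 0.0985 in untreated knockout and 0.0757 in untreated wild-type cells, against 0.215 to 0.243 under ATRA.

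The 10 factors, the 12 further gene lists and the motifs were chosen with earlier results of these data known. Named are all 10 factors, TGM2, for each factor with a called change of at least 2-fold under ATRA the 2 genes of most similar profile, and up to 4 called members of each further list with the largest change at 72 h in wild-type cells. Genes named as not called, and FCER1A, were chosen after their values were seen. List counts are descriptions, with no list test.

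To check the replicate numbers, each array's deviation from its group mean was correlated, across probe sets, with that of the array of equal number in the other genotype. Every pair between the genotypes exceeded 0.1 at 72 h (0.103, 0.160 and 0.138), and not at 48 h (0.196, 0.194 and 0.089) or in untreated cells (−0.06, −0.06 and −0.13). A fit with the number as a block was therefore made. Further settings were quantile normalization, centring on array medians, only brighter probe sets, only probe sets of 1 gene, eBayes without trend or robust, only the compared groups, weights per group, and each array left out.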

Additional observations from a re-analysis of the deposited data

How the results depend on the processing

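In 27 alternatives, 18 of which left out 1 array, the 10 factors gave 2959 values over 11 comparisons. Of the 968 that were called in the reported fit 37 lost their call, 0 further calls were gained and no called value changed its sign. CEBPB, CEBPE, SPI1, RUNX1 and MYB kept all 4 ATRA calls in all 27, and CEBPD kept its calls in the 18 fits with 1 array less. Under quantile normalization the called factors numbered 6 at 48 h and 7 at 72 h in each genotype, against 9, without GFI1 and GATA2 at either time and without CEBPD at 48 h; the cause was not tested. GATA2 in knockout cells at 48 h was also lost with eBayes without trend (adjusted p = 0.0539), and KLF4 there with only the compared groups (adjusted p = 0.0606). Fits without 1 array ended GFI1 calls in knockout cells without replicate 2 of the ATRA group (adjusted p = 0.0714 at 48 h and 0.0743 at 72 h) and in wild-type cells at 48 h (up to 0.124, without any 1 wild-type untreated array or 48 h replicate 2 or 3). The GATA2 call in knockout cells at 48 h ended without any 1 untreated array of either genotype, knockout 48 h replicate 1 or 3, knockout 72 h replicate 1, or replicate 3 of wild-type cells at 48 or 72 h. They also ended GATA2 calls in wild-type cells at 72 h (up to 0.0676, without untreated replicate 1 or 3 or 72 h replicate 1) and KLF4 calls in knockout cells at 72 h (up to 0.0906, without untreated replicate 3 or 72 h replicate 2). Among values called in neither fit 77 changed sign, all of at most 0.17 in the reported fit and 0.27 in the alternative; CEBPA at 48 h was 0.16 in knockout and 0.15 in wild-type cells under quantile normalization. With the replicate number as a block the called factors numbered 9 in each ATRA comparison and 0 in each genotype comparison, so the block changed no call. The block fits the same effect of a number in untreated and ATRA arrays. Untreated arrays of equal number did not go together, so it cannot decide about a pairing under ATRA alone. The lowest adjusted p of a factor between the genotypes over all alternatives was 0.296 in untreated cells, 0.394 at 48 h and 0.223 at 72 h. The counts of factors with a smaller change in the knockout were taken again after the data were seen and stayed at 7 to 8 at 48 h and 6 to 8 at 72 h. KLF4 has no value with only brighter probe sets, and a second probe set per factor could not be tried because each factor has 1.

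The array number limits what can be said. With 3 arrays a group the 95% intervals of the genotype differences were 0.22 to 0.56 to either side of the value. They were wide against the differences found and rest on a spread pooled over all groups. No background measure was used, so the low KLF4 signal has no detection limit here. The labels give neither clone nor culture batch, so differences between clones or cultures cannot be told apart from the genotype.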
